A study of Saccharomyces cerevisiae with 15 samples.

Results

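Nucleotide excision repair is the pathway by which budding yeast (Saccharomyces cerevisiae) removes ultraviolet photoproducts and other bulky DNA lesions. The 10 genes described here are its core factors, namely RAD4 and RAD14 (damage recognition), RAD7 and RAD16 (repair of the genome at large), RAD26 (repair coupled to transcription), RAD3 and SSL2 (helicases of the general transcription factor TFIIH) and RAD1, RAD10 and RAD2 (incision). They were chosen by name, and all 10 were found in the platform annotation among 5449 tested genes, each with 1 probe set whose identifier marks no shared probes.

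In this pathway Rad4 binds distorted DNA and recruits TFIIH, whose helicases Rad3 and Ssl2 open the strands, and Rad14 binds the opened lesion. Rad2 then cuts on the 3′ side and the Rad1-Rad10 nuclease on the 5′ side, after which the gap is filled and sealed. Rad7 and Rad16 act together in repair of DNA that is not being transcribed, while Rad26, the yeast counterpart of human CSB, acts where RNA polymerase II has stalled at a lesion. The pathway therefore meets the polymerase through TFIIH, which is also needed for transcription initiation, and through Rad26.

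RNA levels were measured on 15 Affymetrix arrays, 3 biological replicates for each of 5 strains of the W303 background. The strains of mating type alpha (MATα) were rpb1-1, rpb1S751F and the wild type WT1B, and those of mating type a (MATa) were rpb2-10 and the wild type WT1A. The rpb1 alleles alter the largest subunit of RNA polymerase II, and rpb2-10 alters the second largest. All 5 strains, wild types included, carry the marker mutations ade2-1, can1-100, his3-11,15, trp1-1 and ura3-1 and the leu2 double mutation leu2-3 leu2-112, and all carry RAD5, which many W303 strains have in a mutant form. Cultures were at mid-log phase in rich medium with adenine. The labels give no growth temperature and no DNA-damaging treatment. Each mutation was present in 1 strain, so a difference from the wild type may include other differences between the strains.

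Values are log2 expression levels after RMA, and higher or lower means relative to the other genes on the array. The alpha and a arrays appear to have been normalized apart, with array medians over the tested genes of 10.04 to 10.09 and 7.75 to 7.83, so levels are compared only within a mating type and never between genes. Correlations between replicates across genes ran from 0.987 to 0.998, and all 9 mating-type markers examined matched the labels of the wild types. The alpha mutants departed from WT1B in some of them. Relative to the array median on the log2 scale, the alpha-cell genes SAG1, STE3 and MF(ALPHA)2 were at −1.07, −1.82 and −2.65 in rpb1-1. They were at 1.69, 1.95 and 2.79 in WT1B, at −1.03, −3.85 and −5.13 in WT1A, and at −1.01, −2.19 and −5.04 in rpb2-10. In rpb1S751F MF(ALPHA)2 was at −1.90, but SAG1 and STE3 were at 1.85 and 1.65. The other alpha-cell gene, MF(ALPHA)1, was at 2.34 in rpb1-1 and 2.83 in rpb1S751F, against 3.61 in WT1B and −5.98 in WT1A. The a-cell markers stayed below the array median in both alpha mutants, and the part of these genes in the results was not tested. All 10 excision repair genes lay above the 95th percentile of probe sets for another species on all 15 arrays, and the smallest log2 margin was 3.09. The mutated genes themselves were measured too. RPO21, which encodes the largest subunit, differed by 0.40 ± 0.07 in rpb1-1 (adjusted p = 4e-04) and by 0.37 ± 0.07 in rpb1S751F (adjusted p = 0.000662), and RPB2 differed by 0.00 ± 0.06 in rpb2-10 (adjusted p = 0.962). RPB2, not mutated in the rpb1 strains, rose there too, by 0.63 ± 0.06 in rpb1-1 (adjusted p = 2.46e-06) and by 0.36 ± 0.06 in rpb1S751F (adjusted p = 0.000317). RPO21 differed by 0.15 ± 0.07 in rpb2-10 (adjusted p = 0.103). Fold changes are log2 differences ± the standard error (SE) of a limma fit with n = 3 arrays per group. A gene was called at an adjusted p below 0.05 over all 5449 genes.

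The allele rpb1-1 is known as temperature-sensitive, and its comparison with WT1B concerns repair transcripts in a strain with an altered largest subunit. In rpb1-1, 6 of the 10 genes rose and none fell in the fit of all 15 arrays. RAD7 was called lower there with median centring (−0.200, adjusted p = 0.0368), with further quantile normalization (−0.183, adjusted p = 0.0454), with array weights (−0.263, adjusted p = 0.0029) and without WT1B replicate 1 (−0.261, adjusted p = 0.00577). RAD16 was called lower with array weights (−0.325, adjusted p = 0.0337) and without WT1B replicate 3 (−0.277, adjusted p = 0.0376). SSL2 rose by 1.11 ± 0.09, RAD10 by 0.53 ± 0.08 and RAD26 by 0.51 ± 0.10, and RAD4, RAD3 and RAD14 rose by smaller amounts. Over all genes 61.4% were called, 31.7% higher and 29.8% lower. The 6 calls out of 10 are thus near the share of all genes. All 6 were higher in this fit, and whether their direction differs from that of all genes was not tested. For 7 genes the arrays of rpb1-1 and WT1B did not overlap, as for 63.2% of all genes. The median change of the 10 genes was 0.28, against −0.01 over all genes, while their median absolute change was 0.28, against 0.34 over all genes.

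In rpb1S751F, an allele of the same subunit, 3 genes rose and 2 fell relative to WT1B. SSL2 rose by 0.50 ± 0.09, RAD1 by 0.34 ± 0.08 and RAD10 by 0.27 ± 0.08. RAD16 fell by 0.72 ± 0.14 and RAD7 by 0.32 ± 0.08. Of all genes 64.3% were called, 36.0% higher and 28.3% lower, so 5 of 10 is not above the background. Arrays did not overlap for the same 5 genes, and for 62.5% of all genes. The median change was −0.06, against 0.04 over all genes, and the median absolute change was 0.18, against 0.35.

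In rpb2-10, an allele of the second largest subunit, 5 genes fell relative to WT1A and none rose. RAD16 fell by 1.80 ± 0.14 and RAD7 by 1.45 ± 0.08, so that the transcripts of both partners of the Rad7-Rad16 complex were much lower. SSL2, RAD1 and RAD14 fell by 0.56 ± 0.09, 0.53 ± 0.08 and 0.36 ± 0.07. Of all genes 57.0% were called, 26.2% higher and 30.8% lower. The estimates of all 10 genes were below 0, as were those of 55% of all genes, and the median was −0.29, against −0.05. After a further quantile normalization of all 15 arrays the estimates of RAD4 and RAD10 were above 0, at 0.047 and 0.116. For 9 of the 10 the rpb2-10 arrays lay entirely below the WT1A arrays, and 42.0% of all genes showed this, out of 76.1% without overlap in either direction.

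**Figure D1:**
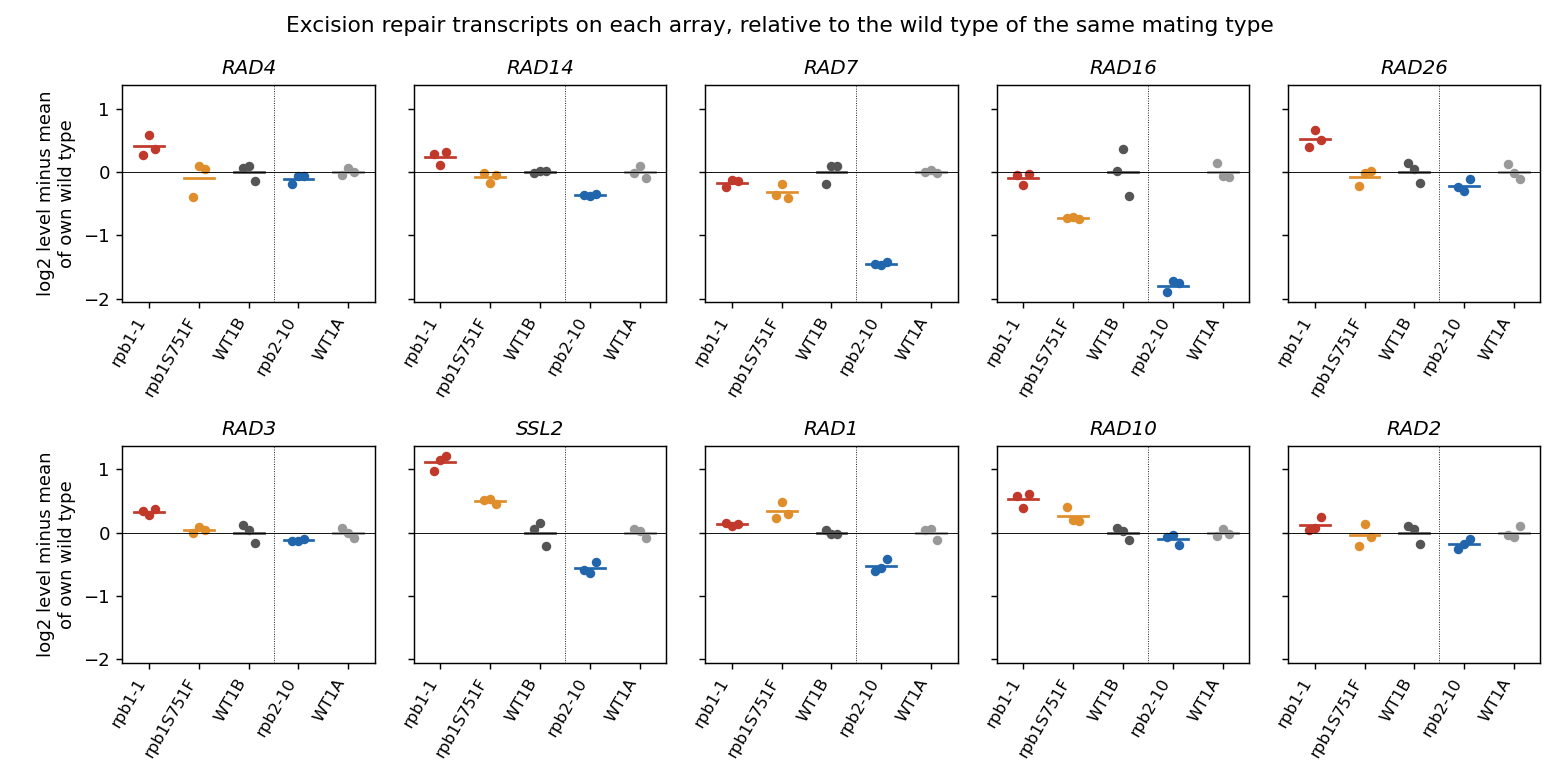
Log2 level of each of the 10 genes on each array, minus the mean of the wild type of the same mating type. Points are arrays (3 per group), short lines are group means, and the dotted line separates alpha strains (left) from a strains (right). RAD7 and RAD16 of rpb2-10 lie lowest, SSL2 of rpb1-1 highest, and the WT1B arrays of RAD16 are spread widely.

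**Figure D2:**
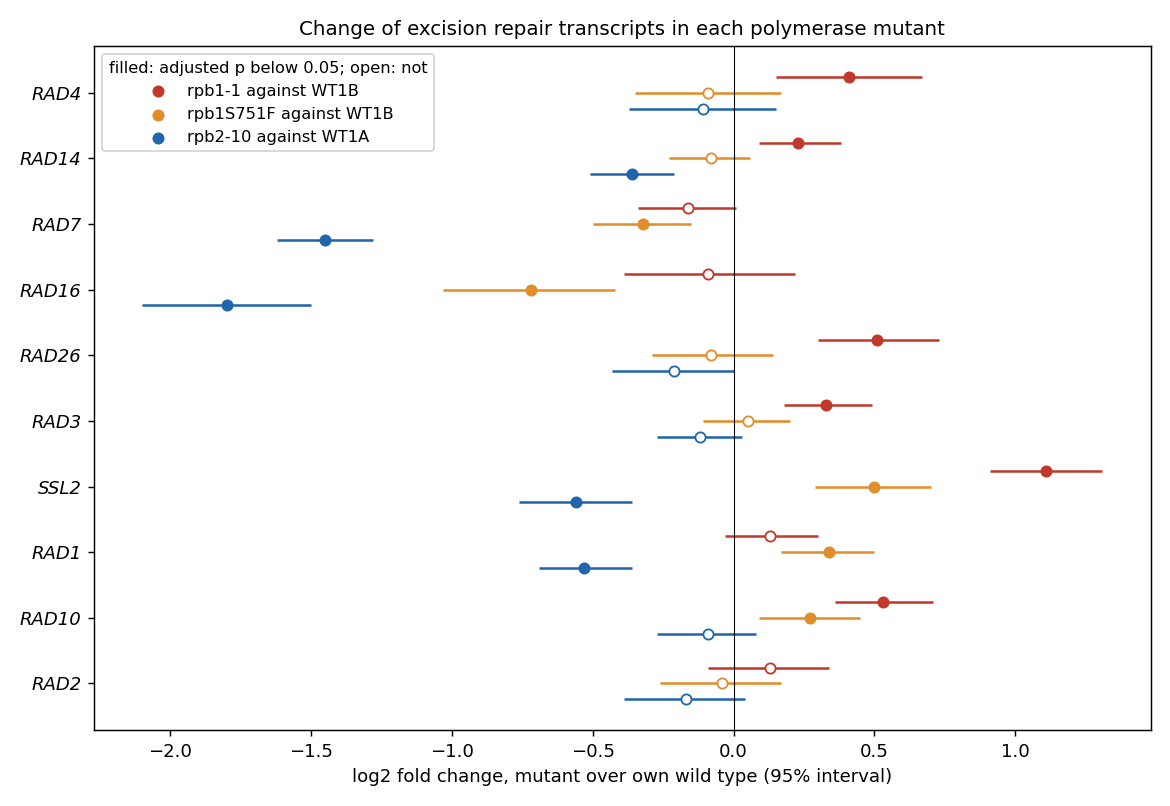
Log2 fold change of each gene in each mutant over its own wild type, with 95% intervals from the limma fit. Filled points had an adjusted p below 0.05. The rpb2-10 points lie below 0 for all 10 genes (RAD4 and RAD10 turn with a further quantile normalization), and 8 of the rpb1-1 points lie above 0.

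The spread between replicates differed between groups and limits these comparisons. The median replicate SD of the 10 genes was 0.11 in rpb1-1, 0.12 in rpb1S751F and 0.15 in WT1B, and 0.08 in both rpb2-10 and WT1A. WT1B replicate 3 had the lowest WT1B value for 8 of the 10 genes, with a median deviation from the group mean of −0.16, while its median over all genes was 0.01. Without that array the same fit called 7 genes in rpb1-1, 6 higher and 1 lower, and 5 genes in rpb1S751F, 3 higher and 2 lower. Of all 5449 genes it called 3299 in rpb1-1 and 3437 in rpb1S751F.

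RAD4 encodes the factor that first recognises damaged DNA. Its log2 levels were 8.08, 8.40 and 8.18 in rpb1-1, and 7.41, 7.90 and 7.85 in rpb1S751F, against 7.88, 7.90 and 7.66 in WT1B. The rpb1-1 arrays were above all WT1B arrays, and the rpb1S751F arrays overlapped them. RAD4 rose by 0.41 ± 0.12 in rpb1-1 (adjusted p = 0.00995) and differed by −0.09 ± 0.12 in rpb1S751F (adjusted p = 0.519). The difference in rpb1S751F was −0.329 with a further quantile normalization (adjusted p = 0.0257). In rpb2-10 it was 5.76, 5.88 and 5.88, against 5.90, 6.01 and 5.95 in WT1A. These arrays did not overlap, yet the difference of −0.11 ± 0.12 was not called (adjusted p = 0.448).

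RAD14 encodes a zinc-finger protein that binds the lesion and is the counterpart of human XPA. Its levels were 8.89, 8.72 and 8.93 in rpb1-1, 8.60, 8.44 and 8.56 in rpb1S751F and 8.59, 8.63 and 8.63 in WT1B. It rose in rpb1-1 by 0.23 ± 0.07 (adjusted p = 0.00914). In rpb1S751F it differed by −0.08 ± 0.07, with a 95% interval of −0.23 to 0.06. It was 6.35, 6.34 and 6.38 in rpb2-10, against 6.71, 6.81 and 6.63 in WT1A, a fall of 0.36 ± 0.07 with no overlap (adjusted p = 0.000624). RAD14 was thus called in opposite directions in rpb1-1 and rpb2-10.

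RAD16 encodes a Snf2-family ATPase with a RING domain and had the largest mean absolute change of the 10 genes over the 3 mutants, 0.87. Its levels were 5.23, 5.40 and 5.37 in rpb2-10, against 7.28, 7.07 and 7.05 in WT1A. The 2 groups were far apart, and RAD16 was 3.48-fold lower in rpb2-10 on the linear scale (adjusted p = 4.65e-07), a larger absolute change than that of 98.5% of all genes. In the alpha strains it was 9.27, 9.11 and 9.28 in rpb1-1 and 8.59, 8.60 and 8.56 in rpb1S751F, against 9.33, 9.67 and 8.93 in WT1B. All rpb1S751F arrays lay below all WT1B arrays (adjusted p = 0.00054), and the rpb1-1 arrays lay within the WT1B range. The WT1B SD of RAD16 was 0.37, the largest of any of the 10 genes in any group. The rpb1-1 estimate of −0.09 ± 0.14 therefore rests on single WT1B arrays, being 0.095 without WT1B replicate 2 (adjusted p = 0.507) and −0.277 without WT1B replicate 3 (adjusted p = 0.0376).

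RAD7 encodes the partner of Rad16 in damage recognition and in a ubiquitin ligase. It was 6.01, 5.99 and 6.03 in rpb2-10, against 7.46, 7.49 and 7.45 in WT1A. Replicates agreed to within 0.04 in both groups, and RAD7 was 2.74-fold lower in rpb2-10 (adjusted p = 1.93e-08), more than the absolute change of 97.4% of all genes. In the alpha strains RAD7 was 8.84, 8.94 and 8.93 in rpb1-1 and 8.70, 8.88 and 8.66 in rpb1S751F, against 8.88, 9.17 and 9.16 in WT1B. The fall in rpb1S751F was called (adjusted p = 0.00302), with 1.25-fold lower levels, and all 3 arrays were at or below the lowest WT1B value. In rpb1-1 the difference of −0.16 ± 0.08 was not called (adjusted p = 0.0882), and without WT1B replicate 1 it was −0.261 (adjusted p = 0.00577).

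RAD26 encodes the Snf2-family ATPase of transcription-coupled repair. Its levels were 7.96, 8.23 and 8.07 in rpb1-1 and 7.35, 7.55 and 7.58 in rpb1S751F, against 7.71, 7.61 and 7.40 in WT1B. The rpb1-1 arrays lay above the others, a rise of 1.43-fold (adjusted p = 0.000564). The rpb1S751F arrays overlapped WT1B, with a difference of −0.08 and a 95% interval of −0.29 to 0.14. A further quantile normalization gave −0.388 there (adjusted p = 0.00465). In rpb2-10 RAD26 was 5.59, 5.52 and 5.71, against 5.94, 5.80 and 5.71 in WT1A. The groups met at their edge, and the difference of −0.21 ± 0.10 was not called (adjusted p = 0.0861). It was called when only the a-strain arrays were fitted (adjusted p = 0.0289).

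SSL2 encodes the DNA translocase of TFIIH, the counterpart of human XPB, which opens promoters as well as DNA around lesions. It was 10.53, 10.71 and 10.78 in rpb1-1 and 10.08, 10.09 and 10.01 in rpb1S751F, against 9.62, 9.72 and 9.35 in WT1B. The 3 groups did not overlap, and SSL2 was 2.16-fold higher in rpb1-1 (adjusted p = 3.66e-07) and 1.41-fold higher in rpb1S751F (adjusted p = 0.000449). In rpb2-10 it was 7.39, 7.35 and 7.52, against 8.04, 8.00 and 7.90 in WT1A. SSL2 was 1.48-fold lower in rpb2-10 with no overlap (adjusted p = 0.000217), and it was the 1 gene of the 10 called in all 3 mutants.

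RAD3 encodes the other TFIIH helicase, the counterpart of human XPD. It was 10.55, 10.49 and 10.59 in rpb1-1 and 10.21, 10.30 and 10.26 in rpb1S751F, against 10.34, 10.25 and 10.05 in WT1B. It rose in rpb1-1 by 0.33 ± 0.07 (adjusted p = 0.00119), and in rpb1S751F the difference was 0.05 ± 0.07, with a 95% interval of −0.11 to 0.20. In rpb2-10 it differed by −0.12 ± 0.07 (adjusted p = 0.169), although all rpb2-10 arrays, from 8.33 to 8.36, were below the WT1A arrays, from 8.38 to 8.53. SSL2 was called in 3 mutants and RAD3 in 1, and the difference between the helicases was not tested.

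RAD1 and RAD10 encode the 2 subunits of the nuclease that cuts on the 5′ side. RAD10 was 8.50, 8.31 and 8.53 in rpb1-1 and 8.33, 8.12 and 8.11 in rpb1S751F, against 7.99, 7.94 and 7.81 in WT1B. Both mutants lay above WT1B without overlap (adjusted p = 8.45e-05 for rpb1-1 and 0.0111 for rpb1S751F). The call in rpb1S751F ended with a further quantile normalization, at 0.149 (adjusted p = 0.236). RAD1 was 9.59, 9.54 and 9.57 in rpb1-1 and 9.66, 9.92 and 9.73 in rpb1S751F, against 9.48, 9.41 and 9.41 in WT1B. Its rise was called in rpb1S751F (adjusted p = 0.00167). In rpb1-1 the arrays were also all above WT1B, but the difference of 0.13 ± 0.08 was not called (adjusted p = 0.142).

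In rpb2-10 the subunits of this nuclease differed in their calls. RAD1 was 7.43, 7.48 and 7.62 in rpb2-10, against 8.09, 8.10 and 7.93 in WT1A, which is 1.44-fold lower without overlap (adjusted p = 6.54e-05). RAD10 was 5.09, 5.13 and 4.96 in rpb2-10, against 5.11, 5.22 and 5.14 in WT1A. These arrays overlapped, and the difference was −0.09 ± 0.08, with a 95% interval of −0.27 to 0.08 (adjusted p = 0.344). Whether RAD1 and RAD10 differ from each other in rpb2-10 was not tested.

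RAD2 encodes the nuclease that cuts on the 3′ side, the counterpart of human XPG, and was the 1 gene of the 10 that was called in no mutant in the fit of all 15 arrays. Its mean levels were 9.21 ± 0.11 in rpb1-1, 9.04 ± 0.18 in rpb1S751F and 9.09 ± 0.16 in WT1B, and 6.52 ± 0.07 in rpb2-10 and 6.69 ± 0.08 in WT1A (SD, n = 3 each). The 95% intervals of its changes ran from −0.09 to 0.34 in rpb1-1, from −0.26 to 0.17 in rpb1S751F and from −0.39 to 0.04 in rpb2-10. In rpb2-10 it was called lower when only the a-strain arrays were fitted (−0.174, adjusted p = 0.0315) and with array weights (−0.183, adjusted p = 0.0118). In yeast RAD2 is known to be inducible by DNA damage.

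The rpb1 alleles were compared directly, because they lie in the same gene and on the same set of arrays. RNA of 7 genes was higher in rpb1-1 than in rpb1S751F and that of 1 was lower, where 56.6% of all genes were called, 27.3% higher and 29.3% lower. The differences of RAD16, SSL2 and RAD26 were 0.64 ± 0.14, 0.61 ± 0.09 and 0.59 ± 0.10, followed by 0.50 ± 0.12 for RAD4, 0.32 ± 0.07 for RAD14, 0.29 ± 0.07 for RAD3 and 0.26 ± 0.08 for RAD10. RAD1 was lower in rpb1-1 by 0.20 on the log2 scale (−0.20 ± 0.08, adjusted p = 0.0352). That call was marginal, and leaving out any 1 of 4 of the 6 arrays raised its adjusted p to between 0.0574 and 0.154. The RAD1 call also ended in fits of the alpha arrays alone (adjusted p = 0.0601) or the 2 groups alone (adjusted p = 0.107). It ended too with array weights (adjusted p = 0.0799), all probe sets tested (adjusted p = 0.0804) and a replicate block (adjusted p = 0.0777). The RAD10 call ended without rpb1-1 replicate 1 or 3 or without rpb1S751F replicate 2 or 3, at adjusted p of 0.0535 to 0.0625. RAD7 and RAD2 were not called, with 95% intervals of −0.01 to 0.33 and −0.05 to 0.38. Without rpb1S751F replicate 2 both were called, RAD7 at 0.226 (adjusted p = 0.0323) and RAD2 at 0.259 (adjusted p = 0.0443), and RAD7 was also called with further quantile normalization (0.188, adjusted p = 0.043).

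The effects of the rpb1 alleles were then set against the effect of rpb2-10, each effect being taken within its own mating type. The effect of rpb1-1 was more positive than that of rpb2-10 for 9 of the 10 genes (56.7% of all genes were called, 31.1% in this direction and 25.6% in the other), and RAD2 was the exception at 0.30 ± 0.14 (adjusted p = 0.0877). Further quantile normalization ended the RAD4 call (0.367, adjusted p = 0.0772), and array weights added RAD2 (0.240, adjusted p = 0.0453). The difference was 1.71 ± 0.20 for RAD16, 1.67 ± 0.13 for SSL2 and 1.29 ± 0.11 for RAD7. For rpb1S751F the effect was more positive for 6 genes, where 51.7% of all genes were called 30.7% in this direction and 21.0% in the other. RAD7, RAD16 and SSL2 again had the largest differences among the 10, of 1.13 ± 0.11, 1.07 ± 0.20 and 1.06 ± 0.13, and RAD1 followed at 0.87 ± 0.11. The RAD14 difference of 0.28 ± 0.10 (adjusted p = 0.0294) ended as a call without WT1B replicate 1, rpb1S751F replicate 1 or 3, WT1A replicate 2 or rpb2-10 replicate 1 or 2, at adjusted p of 0.0564 to 0.0809, and the RAD10 difference was 0.37 ± 0.12 (adjusted p = 0.0178). A further quantile normalization ended both calls, at 0.094 for RAD14 and 0.033 for RAD10. Mating type, the set of arrays and the mutated subunit cannot be told apart in these differences.

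**Figure D3:**
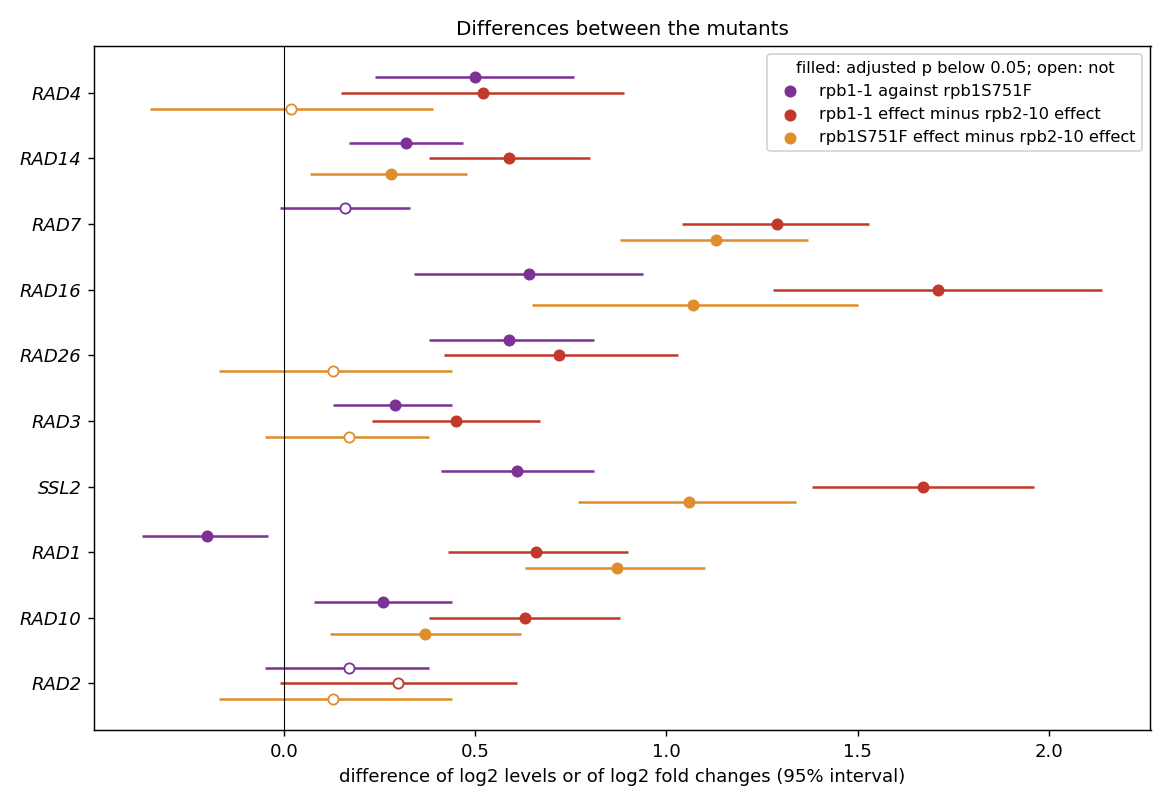
Differences between mutants for each of the 10 genes with 95% intervals. Shown are the log2 level in rpb1-1 over that in rpb1S751F, and the log2 fold change in each rpb1 allele minus that in rpb2-10. Filled points had an adjusted p below 0.05. RAD1 is the 1 gene with a point below 0, in the direct comparison of the alleles.

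Among 7 other excision repair factors, 5 rose and none fell in rpb1-1, and 4 rose and 1 fell in rpb1S751F. In rpb2-10, 2 rose and 2 fell, and the medians were 0.39, 0.21 and −0.09 in this order. Over all genes, 31.7% were called higher and 29.8% lower in rpb1-1, 36.0% and 28.3% in rpb1S751F, and 26.2% and 30.8% in rpb2-10. The medians over all genes were −0.01, 0.04 and −0.05. These values are the background for this list and for each list that follows. RAD28, the yeast counterpart of human CSA, rose by 0.88 ± 0.08 in rpb1-1 and by 0.68 ± 0.08 in rpb1S751F. RAD34, a relative of RAD4 that serves repair of ribosomal DNA, rose by 0.53 ± 0.20 in rpb1-1 and fell by 0.70 ± 0.20 in rpb1S751F and by 1.04 ± 0.20 in rpb2-10. CUL3 and ELC1 encode partners of Rad7 and Rad16 in the ubiquitin ligase. CUL3 rose by 0.70 ± 0.10 in rpb1-1 and by 0.26 ± 0.10 in rpb1S751F and fell by 0.36 ± 0.10 in rpb2-10. ELC1 rose by 0.23 ± 0.08 in rpb1-1, 0.21 ± 0.08 in rpb1S751F and 0.45 ± 0.08 in rpb2-10. RAD23, whose product binds and stabilises Rad4, was called in no mutant, with estimates from 0.01 to 0.04. It was named after its values were seen.

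The 8 other TFIIH subunits show how SSL2 and RAD3 compare with the rest of their complex. In rpb1-1, 3 rose and 1 fell, in rpb1S751F 2 rose and 3 fell, and in rpb2-10 3 rose and 1 fell, with medians between 0.05 and 0.08. TFB5, a small subunit needed for repair, fell by 0.53 ± 0.11 in rpb1-1 and by 1.63 ± 0.11 in rpb1S751F and rose by 0.73 ± 0.11 in rpb2-10. These signs are opposite to those of SSL2 in each mutant. TFB1, a core subunit, fell by 0.27 ± 0.08 in rpb1S751F and by 0.58 ± 0.08 in rpb2-10, and differed by −0.19 ± 0.08 in rpb1-1 (adjusted p = 0.0529). CCL1 rose by 0.44 ± 0.07 in rpb1-1, 0.50 ± 0.07 in rpb1S751F and 0.20 ± 0.07 in rpb2-10. SSL1 rose by 0.20 ± 0.06 in rpb1-1 and by 0.64 ± 0.06 in rpb1S751F. TFB3 rose by 0.45 ± 0.07 in rpb1-1, and KIN28 by 0.22 ± 0.08 in rpb2-10. In each mutant, other subunits were thus called both in the direction of SSL2 and against it.

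Of 15 genes for gap filling and ligation, 9 rose and 2 fell in rpb1-1, 8 rose and 2 fell in rpb1S751F, and 1 rose and 1 fell in rpb2-10. RFA1, the large subunit of replication protein A, rose by 0.79 ± 0.09 in rpb1-1, 0.52 ± 0.09 in rpb1S751F and 0.27 ± 0.09 in rpb2-10. POL31, a subunit of DNA polymerase delta, rose by 0.72 ± 0.08 in rpb1-1 and 0.69 ± 0.08 in rpb1S751F. POL30, which encodes the sliding clamp PCNA, rose by 0.22 ± 0.09 in rpb1-1 and by 0.82 ± 0.09 in rpb1S751F.

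A list of 10 genes that act in transcription-coupled repair or in removal of stalled polymerase had 3 higher and 2 lower in rpb1-1, 1 higher and 4 lower in rpb1S751F, and 1 higher and 3 lower in rpb2-10. DEF1, needed to degrade stalled polymerase and a partner of Rad26, fell in all 3 mutants, by 0.29 ± 0.09, 0.69 ± 0.09 and 0.41 ± 0.09 in this order. SPT5, an elongation factor, rose by 0.49 ± 0.11 in rpb1-1, 0.41 ± 0.11 in rpb1S751F and 0.28 ± 0.11 in rpb2-10. RPB4, a polymerase subunit, fell by 0.51 ± 0.05 in rpb1S751F, and HPR1, of the THO complex, fell by 0.53 ± 0.12 in rpb2-10.

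The list of the photolyase gene and regulators of repair genes had 7 members, of which 3 rose and 2 fell in each rpb1 mutant and 3 fell in rpb2-10. PHR1, the photolyase, rose by 0.68 ± 0.19 in rpb1S751F. RPH1, a repressor of PHR1, fell by 0.46 ± 0.15 in rpb1-1, by 0.70 ± 0.15 in rpb1S751F and by 0.55 ± 0.15 in rpb2-10. RPN4, the activator of proteasome genes, rose by 1.13 ± 0.16 in rpb1-1 and fell by 0.88 ± 0.16 in rpb2-10. DUN1, a checkpoint kinase, rose by 0.68 ± 0.12 in rpb1-1 and by 0.57 ± 0.12 in rpb1S751F.

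Other excision pathways served for comparison. Of 9 base excision repair genes, 3 rose and 2 fell in rpb1-1, 2 rose and 1 fell in rpb1S751F, and 4 rose and 1 fell in rpb2-10. MAG1, a glycosylase for alkylated bases, rose in all 3 mutants, by 0.51 ± 0.15, 0.83 ± 0.15 and 1.00 ± 0.15 in this order. APN2 of the same list was lower in rpb1-1, at −0.76 ± 0.11. Of 6 measured mismatch repair genes, 2 rose and 2 fell in rpb1-1, 2 rose and 4 fell in rpb1S751F, and 1 rose and 3 fell in rpb2-10. MLH2 was lower in all 3 mutants, at −0.57 ± 0.09, −0.68 ± 0.09 and −0.46 ± 0.09 in this order. MSH3 was higher in rpb1-1 and rpb1S751F, at 0.28 ± 0.07 and 0.67 ± 0.07. The median change in rpb2-10 was 0.21 for base excision repair and −0.19 for mismatch repair, beside −0.29 for the 10 core genes and −0.05 over all genes. No test compared these lists with each other or with all genes.

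**Figure D4:**
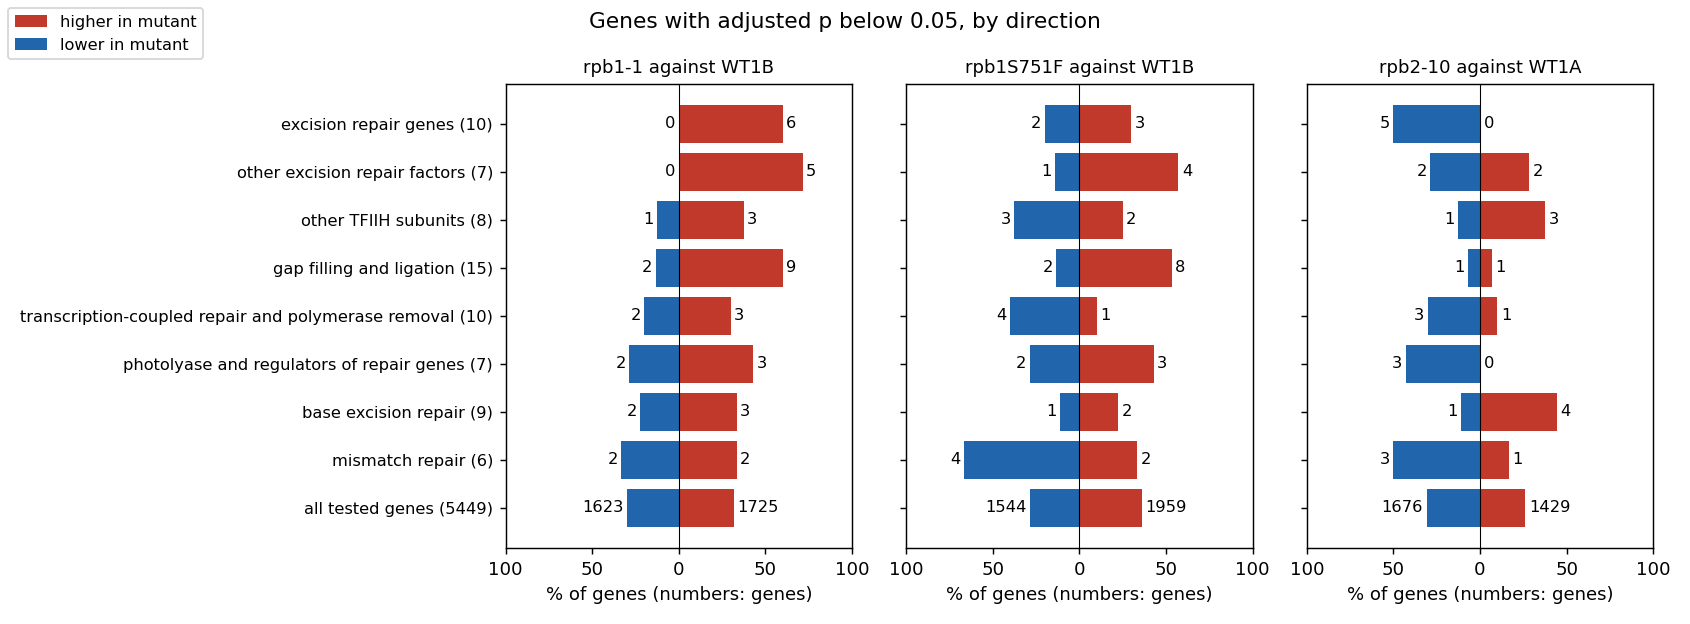
Share of genes with an adjusted p below 0.05 in each mutant, to the right of 0 where higher and to the left where lower, with the number of genes beside each bar and list sizes in brackets. The core excision repair genes have 6 higher and 0 lower in rpb1-1, and 0 higher and 5 lower in rpb2-10, and the bottom row gives all 5449 genes.

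Coding length was examined because polymerase mutants are often studied for elongation. The 10 genes have coding lengths from 633 bases (RAD10) to 3303 bases (RAD1) in RefSeq's table of assembly R64. Across the 10 genes, Spearman's rho of length with the log2 fold change was −0.05 in rpb1-1, 0.31 in rpb1S751F and −0.28 in rpb2-10. Over all 5449 genes rho was 0.07, 0.03 and −0.11 in the same order. These are descriptions, since genes on the same arrays are not independent. The coding lengths of the strongly changed RAD7 and RAD16 are 1698 and 2373 bases. Any part of length in their changes was not tested.

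The pattern of RAD16 was set against all other tested genes over the 9 mutant arrays, as deviations from the own wild-type mean. The closest genes were STP2, NCA3 and TAP42, with Pearson's r of 0.997, 0.993 and 0.992. The sizes of their changes were not the same, and in the rpb1 mutants the signs differed too. RAD16 had log2 fold changes of −0.09 in rpb1-1, −0.72 in rpb1S751F and −1.80 in rpb2-10. STP2, NCA3 and TAP42 all had estimates above 0 in both rpb1 mutants. STP2 had log2 fold changes of 0.57 in rpb1-1, 0.03 in rpb1S751F and −1.01 in rpb2-10, NCA3 had 2.72, 1.03 and −0.96, and TAP42 had 0.45, 0.26 and −0.08. The points share arrays and fall into 3 groups of replicates, and 324 genes had an r above 0.95.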

How the data were processed

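The authors deposited log2 expression levels, 1 value for each probe set on each array. The submitters' processing notes name RMA and limma, with no version. RMA corrects background, quantile-normalizes and summarises probes. What limma was used for, filters and scan batches: not given in the sources used here. Of 10928 probe sets, 5498 named 1 S. cerevisiae gene in the platform annotation, with 12 symbols updated through RefSeq (assembly R64). The brightest probe set was kept for 47 genes with several, leaving 5449. Probe sets of another species (1746) served as background.

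From these values, limma 3.58.1 (R 4.3.3) estimated group means over the 15 arrays together. Residual and prior degrees of freedom were 10 and 2.98. P-values were two-sided and Benjamini-Hochberg adjusted over 5449 genes, with a threshold of 0.05. The variance is shared between groups, so its SE tends to be small for alpha strains and large for a strains. The code was tested on simulated data. Replicates are biological per the labels, and the number of arrays limits precision. Same-numbered arrays of different groups had correlations of deviations from −0.313 to 0.497, with 5 of 12 above 0.1, so the numbers were not taken as pairs.

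The 10 genes and the 7 further lists were chosen with earlier results of these data known. From each further list the text names up to 3 called genes with the largest changes in a comparison. Alternatives were median centring, further quantile normalization, fits on fewer groups, array weights, a variance trend, filters on probe sets, a replicate block and leaving out each array. Sequences are not used here.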

Additional observations from a re-analysis of the deposited data

Results flagged for a closer look

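The effects of the mutants on the same gene differed by a test of the difference itself in 23 cases, all from the limma fit with adjusted p below 0.05. These were 8 of the 10 genes between rpb1-1 and rpb1S751F, where 56.6% of all genes were called. They were 9 of 10 for rpb1-1 against rpb2-10 and 6 of 10 for rpb1S751F against rpb2-10, where 56.7% and 51.7% of all genes were called. Values are log2 differences. Between rpb1-1 and rpb1S751F the differences were 0.50 for RAD4, 0.32 for RAD14, 0.64 for RAD16, 0.59 for RAD26, 0.29 for RAD3, 0.61 for SSL2, −0.20 for RAD1 and 0.26 for RAD10. The effect of rpb1-1 minus that of rpb2-10 was 0.52 for RAD4, 0.59 for RAD14, 1.29 for RAD7, 1.71 for RAD16, 0.72 for RAD26, 0.45 for RAD3, 1.67 for SSL2, 0.66 for RAD1 and 0.63 for RAD10. The effect of rpb1S751F minus that of rpb2-10 was 0.28 for RAD14, 1.13 for RAD7, 1.07 for RAD16, 1.06 for SSL2, 0.87 for RAD1 and 0.37 for RAD10. The last 2 sets of differences cross the mating types, which cannot be told apart from the mutated subunit. Some of these calls ended under alternative settings or without single arrays. Between the rpb1 alleles this held for RAD1 in 9 of 17 refits and for RAD10 in 5 of 16. For rpb1-1 against rpb2-10 it held for RAD4 in 1 of 20. For rpb1S751F against rpb2-10 it held for RAD14 in 9 of 20 and for RAD10 in 2 of 20. With 3 arrays per group, single arrays were not screened as outliers.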

How the results depend on the processing

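The direction and call of each of the 10 genes were recomputed under 9 to 11 alternative settings and without each of 6 to 12 arrays per comparison, 1070 values in all, of which 1007 kept both. In 27 a call ended, in 20 a gene became called, and in 16 the sign of an uncalled estimate turned. No called value changed sign. The number of the 10 genes called moved by over 1.5 times without the dimmest 25% of genes and, in rpb2-10, with array weights. Other changes of this number were smaller. Leaving out the dimmest 25% of genes removed 5 of the 10 genes (RAD4, RAD14, RAD16, RAD26 and RAD10), so counts became 2 in rpb1-1, 3 in rpb1S751F, 3 in rpb2-10, 3 between the rpb1 alleles, and 4 and 3 for the effects of rpb1-1 and rpb1S751F against rpb2-10. Of the 4087 genes left, 2555, 2622, 2466, 2243, 2368 and 2077 were called in the same order. Array weights, whose estimation stopped before convergence, gave 9 genes lower in rpb2-10. Fits on the a-strain arrays alone gave 7, RAD2 among them. Of all 5449 genes, 4046 were called with array weights and 3877 with the a-strain arrays alone, against 3105 in the main fit. With the replicate block the counts were 6 in rpb1-1, 5 in rpb1S751F, 5 in rpb2-10, 9 and 6 for the differences of effects and 7 between the rpb1 alleles, where RAD1 lost its call (adjusted p = 0.0777). With this block 3332, 3441, 3089, 3060, 2767 and 3035 of all genes were called, in the same order. Leaving out single arrays gave 6 to 7, 5 to 5 and 5 to 5 genes in rpb1-1, rpb1S751F and rpb2-10, 6 to 8 between the alleles, and 9 to 9 and 5 to 6 for the differences of effects. Of all genes these fits called 3073 to 3299, 3159 to 3526 and 2637 to 2849 in the same mutants. Between the alleles they called 2814 to 3063, and for the differences of effects 2836 to 3162 and 2547 to 2863.

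The signs that turned were as follows. In rpb1-1, RAD16 ranged from −0.277 to 0.095 as single arrays were left out, with 0.095 without WT1B replicate 2. In rpb1S751F, the ranges over single arrays left out were −0.134 to 0.042 for RAD2 (0.014 without WT1B replicate 1 and 0.042 without rpb1S751F replicate 1), −0.037 to 0.109 for RAD3 (lowest without WT1B replicate 3) and −0.183 to 0.061 for RAD4 (highest without rpb1S751F replicate 1). In rpb2-10, further quantile normalization gave 0.047 for RAD4 and 0.116 for RAD10. In the effect of rpb1S751F minus that of rpb2-10, further quantile normalization gave −0.376 for RAD4, −0.362 for RAD26 and −0.012 for RAD2. There RAD4 was at −0.053 with median centring and between −0.071 and 0.173 with single arrays left out, at −0.060 and −0.008 without WT1B replicate 3 and WT1A replicate 2, −0.071 and −0.044 without rpb1S751F replicates 2 and 3, and −0.020 without rpb2-10 replicate 1. The cause was not tested. Further quantile normalization also ended the RAD10 call in rpb1S751F (0.149, adjusted p = 0.236) and added RAD4 (−0.329, adjusted p = 0.0257) and RAD26 (−0.388, adjusted p = 0.00465) there. In the effect of rpb1S751F minus that of rpb2-10, median centring ended the calls of RAD14 (adjusted p = 0.114) and RAD10 (adjusted p = 0.0564). Called values also moved by over 1.5 times for RAD4 in rpb1-1 with array weights (0.261), and with further quantile normalization for RAD14 in rpb2-10 (−0.230) and RAD26 between the rpb1 alleles (0.906).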
